A study of Macaca mulatta with 9 samples.

Results

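The genes described here are 43 type I interferon-stimulated genes, chosen by name from an externally given list of antiviral effectors, RNA sensors, ISG15-pathway enzymes and transcription factors, and followed in blood of rhesus macaques (Macaca mulatta). All 43 were found among the 24371 genes of the deposited table. Of these, 42 reached the minimum level for testing, as did 10596 genes in all; SIGLEC1 did not and is given by its values only. The members were taken by gene name and not by a threshold on measured values, although the list was drawn up with earlier results of these data known.

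The series measured blood RNA of 9 animals allocated at random to 3 groups of 3. The first group received an injection of PBS, the vehicle, and its animals are called Old in the sample descriptions. The second received extracellular vesicles labelled Evs-FBMSC, a source name that the labels do not spell out, and the third received vesicles labelled Evs-ABPC, from antler blastema progenitor cells. All 9 animals have the genotype WT, and the labels give no dose, number of injections, interval before sampling or age. No animal gave more than 1 library, and the spread within a group is that between animals. The series title names age-related phenotypes, and the design asks how blood RNA differed between vesicle and vehicle injection and between the vesicle types.

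Type I interferons (interferon alpha, beta and their relatives) bind the receptor IFNAR1/IFNAR2, whose kinases JAK1 and TYK2 phosphorylate STAT2 and related factors. STAT2 and IRF9 are parts of the complex ISGF3, which binds response elements at interferon-stimulated genes and raises their transcription. The products block virus entry, translation and replication, and their transcripts in blood leukocytes are used as a readout of interferon exposure. Mature red cells carry mostly globin RNA, so white cells are the main known source of these transcripts in blood.

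Values were deposited as log2 of a per-million, length-scaled abundance and are given here on the linear scale, called per-million values. Recovered reads outside 6 very abundant genes numbered 2850187 to 4426793 in the PBS libraries, 5128597 to 6372728 in the Evs-FBMSC libraries and 6468853 to 7774118 in the Evs-ABPC libraries. The globin genes HBB, HBA and HBA1 together held 88.2 to 92.7% of the per-million total under PBS, 82.3 to 87.6% under Evs-FBMSC and 70.9 to 82.4% under Evs-ABPC. Because that total is fixed, the listed value of any other gene depends on the globin share: over all genes tested the median log2 fold change was 1.41 for Evs-ABPC against PBS, 0.70 for Evs-FBMSC against PBS and 0.71 for Evs-ABPC against Evs-FBMSC. Dividing each library by its median ratio to the geometric mean of all libraries, here called scaling, brought these medians to 0.00, 0.02 and -0.02. A scaled value is therefore a level relative to the median gene, and both scales are reported. The fold changes were fitted with limma to log2(value + 1), which understates the change of low genes, and a gene was called at a Benjamini-Hochberg adjusted p under 0.05. In these bulk samples, fewer cells of a type and less RNA per cell cannot be told apart.

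Every member had a value above 0 in every library, and the 43 together held 14794 to 44229 recovered reads per library. Levels, which are scaled by gene length and so can be compared between genes, spanned from 69.6 per-million units for TRIM22, a restriction factor against retroviruses, to 0.409 for SIGLEC1, a sialic acid receptor of monocytes and macrophages (means of 9 libraries). IFI6 followed at 57.6, LY6E at 44.4, ADAR at 41.4 and BST2 at 31.7 per-million units. This order differed by group: IFI6 (74.0 ± 44.9) and TRIM22 (69.7 ± 12.2) overlapped under Evs-FBMSC, and LY6E (21.3 ± 14.3) and IFI6 (17.1 ± 7.30) under PBS (SD, n = 3 each). Per library, the members summed to 272, 225 and 301 per-million units under PBS, to 882, 685 and 700 under Evs-FBMSC and to 678, 1138 and 948 under Evs-ABPC. All 6 vesicle libraries thus lay above all 3 PBS libraries on the deposited scale.

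Relative to the median gene the order was different. Scaled sums were 834, 485 and 398 under PBS (572 ± 231, SD, n = 3), 907, 575 and 740 under Evs-FBMSC (741 ± 166, SD, n = 3) and 452, 532 and 381 under Evs-ABPC (455 ± 75.4, SD, n = 3). The Evs-FBMSC libraries all lay above the Evs-ABPC libraries, while PBS overlapped both. PBS replicate 1 stood apart from the other vehicle animals: it was the highest PBS library for 32 of the 42 tested members (76.2%, against 30.5% of all genes tested), with a median ratio of 1.95 to the mean of the other PBS libraries. Evs-FBMSC replicate 1 held the highest scaled value of all 9 libraries for 18 of the 42, Evs-FBMSC replicate 3 for 9 and PBS replicate 1 for 7. Over all genes tested, these libraries held the highest scaled value for 18.8%, 6.81% and 10.8% in that order.

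**Figure D1:**
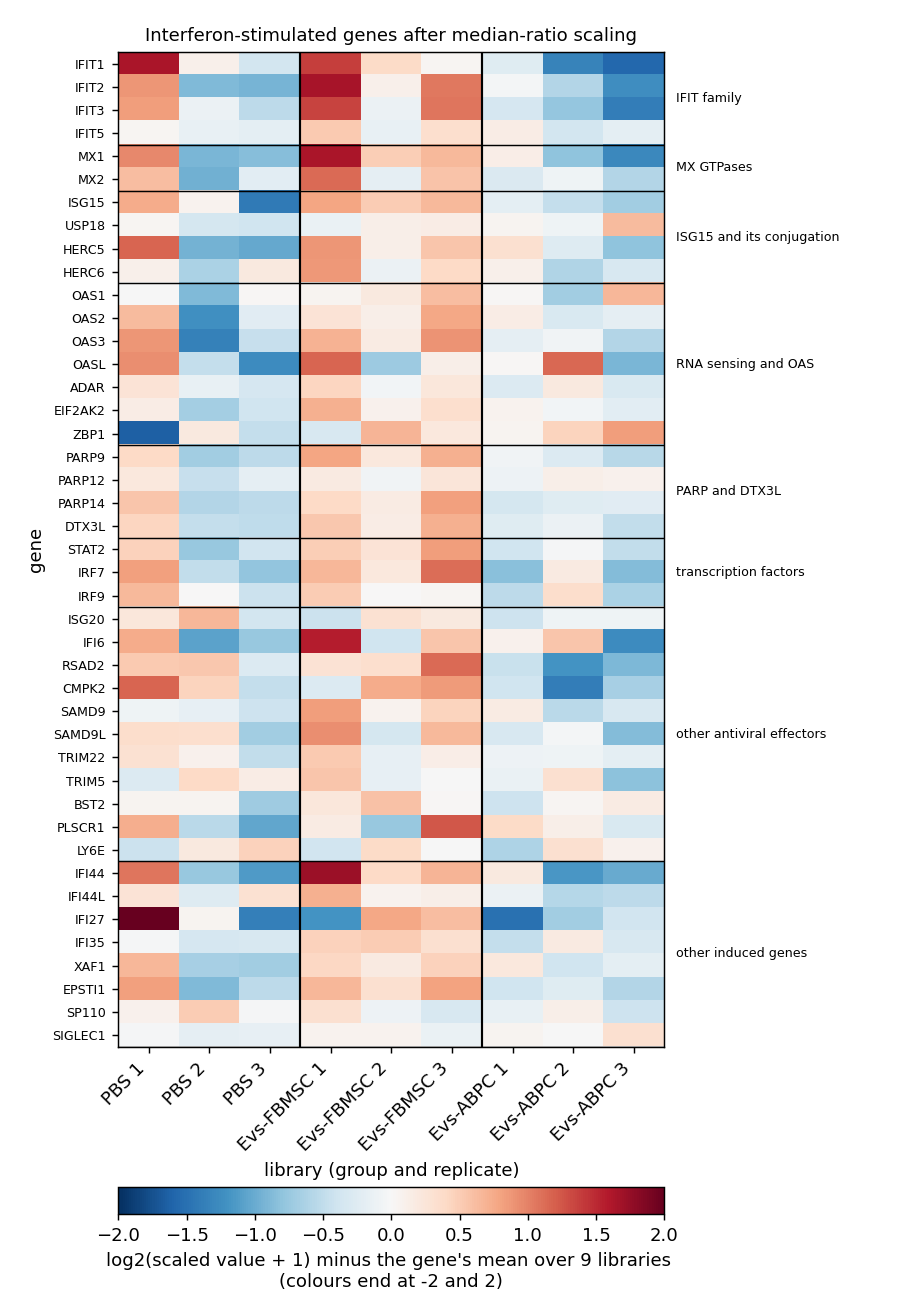
Scaled level of each of the 43 genes (vertical axis, grouped by role) in each of the 9 libraries (horizontal axis), as log2(scaled value + 1) minus the gene's mean, with colours ending at -2 and 2. Evs-FBMSC replicates 1 and 3 and PBS replicate 1 are red for most genes, and the IFIT, MX1, RSAD2 and IFI44 rows are blue in Evs-ABPC replicates 2 and 3.

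The spread between animals was wider for these genes than for the median gene. The median SD within a group, on the scaled log2 scale, was 0.61 under PBS, 0.38 under Evs-FBMSC and 0.35 under Evs-ABPC for the members, against 0.27, 0.24 and 0.26 for all genes tested. The member with the highest SD under PBS (2.60) and Evs-FBMSC (1.10) was IFI27, and under Evs-ABPC it was OASL (1.04). IFI27, a mitochondrial and nuclear-membrane protein strongly induced in blood by interferon, measured 30.4, 3.08 and 1.41 per-million units under PBS, 2.16, 13.8 and 9.79 under Evs-FBMSC and 2.44, 7.65 and 11.6 under Evs-ABPC. Its highest value lay in PBS replicate 1 and its lowest in PBS replicate 3, so both vesicle groups lay within the PBS range. After scaling, its log2 fold change was -0.72 (SE 1.08) for Evs-FBMSC and -1.64 (SE 1.08) for Evs-ABPC, each against PBS, and the first was 0.74 without PBS replicate 1.

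Of the ligands, 5 of 17 listed interferon genes were in the table, and only IFNG, the type II interferon, reached the level for testing. IFNB1, the interferon beta gene, was listed above 0 only in Evs-FBMSC replicates 1 and 2, at 0.216 and 0.109 per-million units. IFNA21 had values of 0.188 in PBS replicate 3 and 0.305 in Evs-ABPC replicate 1 and was listed at 0 elsewhere. IFNG measured 0, 0.549 and 0.352 per-million units under PBS, 0.367, 1.36 and 0.679 under Evs-FBMSC and 2.41, 0.187 and 7.60 under Evs-ABPC. The IFNG values overlapped between all groups, with the highest in Evs-ABPC replicates 3 and 1. Interferon protein was not measured.

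The median of the other tested pathway genes lay close to that of all genes after scaling, but single genes, IFNAR2 and CISH among them, lay further away. IFNAR2, the signalling chain of the receptor, had scaled values of 4.68, 4.77 and 3.93 under PBS, 9.06, 4.69 and 6.38 under Evs-FBMSC and 3.62, 4.91 and 3.44 under Evs-ABPC. Evs-FBMSC replicates 1 and 3 lay above all others, and Evs-FBMSC replicate 2 lay within the range of the other groups. Of 22 tested genes in the pathway list (the ligand IFNG, 4 receptor and kinase genes, 9 other factors and 8 negative regulators), limma called 0 in any comparison after scaling. At an unadjusted p under 0.05, 1 was higher and 3 were lower for Evs-ABPC against Evs-FBMSC. CISH (0.51), a cytokine-signalling inhibitor, was the higher one, and the lower ones included IFNAR2 (-0.60) and TBK1 (-0.45), the kinase that activates IRF3; these were named after their values were seen. For Evs-FBMSC against PBS, CISH was lower (-0.53) at that level, and for Evs-ABPC against PBS there were 0. As deposited, all 22 rose for Evs-ABPC against PBS (90.9% of all genes tested) and 0 were called in the other comparisons. There, 12 of 22 were higher at an unadjusted p under 0.05 for Evs-FBMSC against PBS (43.6% of all genes tested) and 9 of 22 for Evs-ABPC against Evs-FBMSC (48.0%), shares near those of the whole table. The median scaled log2 fold change of the 22 was 0.10 for Evs-FBMSC against PBS, -0.14 for Evs-ABPC against PBS and -0.12 for Evs-ABPC against Evs-FBMSC.

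Among the members, 3 encode transcription factors of the pathway: STAT2 and IRF9, parts of ISGF3, and IRF7, which amplifies interferon alpha production. STAT2 measured 10.9, 6.40 and 13.9 per-million units under PBS, 33.3, 34.8 and 41.5 under Evs-FBMSC and 27.2, 50.9 and 41.9 under Evs-ABPC. IRF7 measured 5.63, 2.93 and 3.78 under PBS, 14.9, 13 and 20.2 under Evs-FBMSC and 7.24, 23.0 and 11.6 under Evs-ABPC. For both genes each PBS library lay below every vesicle library, and the vesicle groups overlapped. After scaling, the Evs-ABPC libraries all lay below the Evs-FBMSC libraries for both: STAT2 averaged 35.8 ± 7.49 under Evs-FBMSC and 19.6 ± 3.70 under Evs-ABPC, and IRF7 15.9 ± 5.23 and 6.75 ± 3.47 (SD, n = 3 each). The scaled log2 fold changes were -0.83 (SE 0.32) for STAT2 and -1.16 (SE 0.45) for IRF7, and IRF9 had -0.46 (SE 0.35). Against PBS, with means of 21.9 ± 10.3 for STAT2 and 9.53 ± 6.73 for IRF7 (SD, n = 3 each), the Evs-FBMSC values were 0.76 and 0.81 and the Evs-ABPC values -0.07 and -0.35. The Evs-ABPC values turned positive without PBS replicate 1, to 0.27 for STAT2 and 0.14 for IRF7.

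The IFIT proteins bind foreign or incompletely capped RNA and block its translation, and IFIT1, IFIT2 and IFIT3 act in one complex. IFIT1 measured 14.1, 6.63 and 7.55 per-million units under PBS, 34.9, 20.8 and 12.8 under Evs-FBMSC and 16.5, 9.84 and 9.45 under Evs-ABPC. IFIT2 measured 8.30, 3.15 and 4.99 under PBS, 42.7, 17.2 and 27.2 under Evs-FBMSC and 19.6, 18.3 and 12.6 under Evs-ABPC. IFIT3 measured 11, 7.86 and 9.48 under PBS, 47.2, 20.1 and 37.3 under Evs-FBMSC and 21.4, 22 and 15.9 under Evs-ABPC. Evs-FBMSC replicate 1 was the highest library for all of them, and only IFIT1 had vesicle libraries within the PBS range. On the deposited scale IFIT2 rose by 2.20 (SE 0.43) on the log2 scale for Evs-FBMSC against PBS (limma adjusted p = 0.0209). For Evs-ABPC against PBS, IFIT2 rose by 1.52, IFIT3 by 0.99 and IFIT5 by 0.86, while IFIT1 had 0.34 and did not pass. In that comparison 90.9% of all genes tested rose and their median was 1.41, so IFIT1 and IFIT3 lay below the median gene. IFIT5 measured only 0.334 to 0.552 per-million units under PBS, where adding 1 before the log2 understates the change. Its scaled log2 fold change for Evs-ABPC against PBS was -0.03, near the all-gene median of 0.00.

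After scaling, IFIT1, IFIT2 and IFIT3 were among the 6 members with the most negative differences between the vesicle groups, beside IFI44, MX1 and RSAD2. Scaled values of IFIT1 were 35.9, 17.4 and 13.5 under Evs-FBMSC and 11, 4.60 and 3.80 under Evs-ABPC, and those of IFIT3 were 48.5, 16.9 and 39.5 against 14.3, 10.3 and 6.40. For IFIT1, IFIT2 and IFIT3 every Evs-ABPC library lay below every Evs-FBMSC library. The scaled log2 fold changes were -1.65 (SE 0.56), -1.55 (SE 0.55) and -1.60 (SE 0.47), and that of IFIT5, which binds other RNA ends, was -0.38 (SE 0.22). The PBS values of IFIT1 spanned both groups, at 43.2, 14.3 and 9.98, and its scaled log2 fold change against PBS was 0.14 for Evs-FBMSC and -1.51 for Evs-ABPC. The first of these was -0.033 without PBS replicate 2, -0.28 without PBS replicate 3 and -0.26 without Evs-FBMSC replicate 1.

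MX1 and MX2 are dynamin-like GTPases that trap viral nucleocapsids. MX1 measured 7.29, 2.5 and 4.27 per-million units under PBS, 35.1, 18.9 and 16.9 under Evs-FBMSC and 18.3, 12.6 and 9.74 under Evs-ABPC. All vesicle libraries lay above all PBS libraries, and Evs-FBMSC replicate 1 was the highest. MX1 rose for Evs-FBMSC against PBS by 2.13 on the log2 scale (SE 0.42, limma adjusted p = 0.0228). For Evs-ABPC against PBS it rose by 1.40 (SE 0.42, limma adjusted p = 0.00396). The all-gene medians were 0.70 and 1.41 in these comparisons, so MX1 exceeded the median gene only in the first. Scaled means were 11.1 ± 9.72 under PBS, 23.3 ± 11.1 under Evs-FBMSC and 7.32 ± 4.31 under Evs-ABPC (SD, n = 3 each), and the Evs-ABPC libraries again lay below the Evs-FBMSC libraries. Between the vesicle groups the scaled log2 fold change was -1.58 (SE 0.55) for MX1 and -0.83 (SE 0.43) for MX2; the difference between the genes was not tested.

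ISG15 is a ubiquitin-like protein that HERC5 attaches to targets and USP18 removes; USP18 also dampens IFNAR2 signalling. ISG15 measured 2.18, 1.78 and 0.547 per-million units under PBS, 6.75, 6.62 and 5.89 under Evs-FBMSC and 4.54, 4.95 and 4.59 under Evs-ABPC. The groups did not overlap, in the order PBS, Evs-ABPC, Evs-FBMSC, and within the vesicle groups the values were close together. These values rest on few reads, 6 to 29 per library under PBS and 34 to 71 in the vesicle libraries. ISG15 rose for Evs-FBMSC against PBS by 1.63 (SE 0.34, limma adjusted p = 0.033) on the log2 scale as deposited. For Evs-ABPC against PBS it rose by 1.25 (SE 0.34, limma adjusted p = 0.00201). With all-gene medians of 0.70 and 1.41 in these comparisons, ISG15 exceeded the median gene only in the first. After scaling it had 6.69, 3.83 and 0.722 under PBS, 6.94, 5.56 and 6.24 under Evs-FBMSC and 3.02, 2.31 and 1.85 under Evs-ABPC. PBS replicate 1 then lay within the Evs-FBMSC range and PBS replicate 3 below every other library, and the log2 fold change between the vesicle groups was -1.10 (SE 0.44).

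USP18 had another group order than ISG15. It measured 0.230, 0.140 and 0.199 per-million units under PBS, 0.499, 0.966 and 0.808 under Evs-FBMSC and 1.10, 1.21 and 3.94 under Evs-ABPC. The groups did not overlap, and Evs-ABPC replicate 3 stood far above the rest. USP18 reached the value of 1 needed for testing only in the Evs-ABPC libraries, so its tests give no independent support for a rise in that group. As deposited, its log2 fold change for Evs-ABPC against PBS was 1.26 (SE 0.31), beside an all-gene median of 1.41. Its PBS values are so low that adding 1 before the log2 understates this change, so the 2 numbers do not rank it against the median gene. With scaled values, USP18 had 0.44 (limma adjusted p = 0.555) for Evs-ABPC against PBS, above the all-gene median of 0.00. After scaling it was 1 of 2 members above 0 for Evs-ABPC against Evs-FBMSC (0.15, SE 0.23). The ligase genes HERC5 and HERC6 had -0.77 (SE 0.54) and -0.65 (SE 0.31) in that comparison.

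The RNA-sensing genes were split. OAS1, OAS2 and OAS3 make the 2-5A messenger that activates RNase L, EIF2AK2 encodes the translation-blocking kinase PKR, ADAR edits double-stranded RNA, and ZBP1 senses Z-form nucleic acid and can start necroptosis. OAS1 measured 0.432, 0.129 and 1.05 per-million units under PBS, 1.41, 2 and 2.45 under Evs-FBMSC and 2.09, 0.969 and 6.72 under Evs-ABPC. Evs-ABPC replicate 2 lay within the PBS range and replicate 3 above all others, and the scaled log2 fold change between the vesicle groups was -0.29 (SE 0.36), or 0.05 without Evs-ABPC replicate 2. EIF2AK2 measured 1.05, 0.630 and 1.43 under PBS, 5.05, 3.62 and 3.58 under Evs-FBMSC and 4.47, 5.63 and 5.68 under Evs-ABPC, with no overlap between PBS and either vesicle group. It rose for Evs-ABPC against PBS by 1.63 (SE 0.32, limma adjusted p = 0.000417) as deposited. There the all-gene median was 1.41 and 90.9% of all genes tested rose. After scaling EIF2AK2 had 0.24 (limma adjusted p = 0.766) for Evs-ABPC against PBS. For Evs-FBMSC against PBS it had 0.69 (SE 0.24, limma adjusted p = 0.958).

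ZBP1 had the highest log2 fold change of all members for Evs-ABPC against PBS. It measured 0.231, 2.34 and 2.10 per-million units under PBS, 3.13, 8.92 and 4.82 under Evs-FBMSC and 6.69, 13.3 and 21.0 under Evs-ABPC. Both vesicle groups lay above PBS without overlap, and PBS replicate 1, the vehicle library with the highest scaled sum of members, had the lowest ZBP1 value. ZBP1 rose by 2.52 on the log2 scale (SE 0.44, limma adjusted p = 0.000417) as deposited, and its scaled log2 fold change was 1.08 (SE 0.44, adjusted p = 0.432). Between the vesicle groups the scaled value was 0.26 (SE 0.44), the other member above 0. ADAR and OASL, an OAS relative without synthase activity, had -0.33 (SE 0.26) and -0.10 (SE 0.68).

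PARP9, PARP12 and PARP14 are ADP-ribosyltransferase family proteins, and DTX3L is the ubiquitin ligase partner of PARP9. PARP9 measured 2.64, 1.52 and 2.91 per-million units under PBS, 10.7, 8.39 and 9.79 under Evs-FBMSC and 8.42, 10.2 and 9.25 under Evs-ABPC. PARP12 measured 1.44, 1.11 and 2.36 under PBS, 4.18, 4.09 and 4.29 under Evs-FBMSC and 5.02, 8.75 and 9.84 under Evs-ABPC. Both genes separated PBS from all vesicle libraries; the vesicle groups overlapped for PARP9 and not for PARP12. As deposited, PARP9 rose for Evs-FBMSC against PBS by 1.68 (SE 0.35, limma adjusted p = 0.0317), and PARP12 rose for Evs-ABPC against PBS by 1.73 (SE 0.35, adjusted p = 0.000424). The all-gene medians were 0.70 and 1.41 in these comparisons. In the same comparisons after scaling, PARP9 had 0.85 and PARP12 had 0.18, and neither passed. Scaled log2 fold changes between the vesicle groups were -0.87 (SE 0.30) for PARP9, -0.75 (SE 0.28) for DTX3L, -0.73 (SE 0.32) for PARP14 and -0.08 (SE 0.20) for PARP12.

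RSAD2, or viperin, and CMPK2 are neighbouring genes whose products make antiviral nucleotides. RSAD2 measured 2.05, 2.95 and 2.43 per-million units under PBS, 5.07, 6.47 and 9.63 under Evs-FBMSC and 4.09, 2.58 and 4.27 under Evs-ABPC. Every Evs-FBMSC library lay above all 6 others, a pattern shared as deposited only with ISG15 among the members (2 of 42, against 0.123% of all genes tested). After scaling, RSAD2 had 6.28, 6.35 and 3.21 under PBS, 5.21, 5.44 and 10.2 under Evs-FBMSC and 2.72, 1.21 and 1.72 under Evs-ABPC. It was then the 1 member whose Evs-ABPC libraries all lay below all PBS libraries, with a scaled log2 fold change of -1.11 (SE 0.31, limma adjusted p = 0.244) against PBS and -1.44 (SE 0.31, adjusted p = 0.748) against Evs-FBMSC. CMPK2 measured 2.33, 1.82 and 1.2 per-million units under PBS, 1.95, 6.01 and 5.19 under Evs-FBMSC and 2.60, 0.816 and 3.17 under Evs-ABPC. Evs-ABPC replicate 2 held its lowest value, and the scaled log2 fold changes were -1.2 (SE 0.45) against PBS and -1.26 (SE 0.45) against Evs-FBMSC.

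Of the other antiviral effectors, ISG20, an RNA exonuclease, measured 8.43, 16.3 and 12.7 per-million units under PBS, 15.6, 32.5 and 23.9 under Evs-FBMSC and 24.3, 44.1 and 51.1 under Evs-ABPC. After scaling its group means were 25.9 ± 9.18, 22.9 ± 6.02 and 19.1 ± 2.54 in that order (SD, n = 3 each), and all groups overlapped. The restriction factors TRIM22, TRIM5 and BST2 (tetherin), with LY6E, which blocks coronavirus entry, had scaled log2 fold changes of -0.29, -0.34, -0.35 and -0.06 between the vesicle groups, each within 1.5 times its SE. SAMD9 and SAMD9L, which restrict poxviruses, had -0.68 (SE 0.25) and -0.81 (SE 0.41).

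The remaining induced genes include IFI44 and IFI44L, neighbouring genes of poorly known function, IFI35, a partner of the factor NMI, and SP110, a nuclear body protein. IFI44 measured 4.19, 1.35 and 1.53 per-million units under PBS, 20.1, 9.10 and 9.03 under Evs-FBMSC and 9.88, 4.11 and 5.62 under Evs-ABPC. IFI44L measured 0.638, 0.491 and 1.55 under PBS, 2.93, 1.88 and 1.56 under Evs-FBMSC and 1.91, 1.39 and 1.74 under Evs-ABPC. PBS replicate 1 was the highest vehicle library for IFI44 and PBS replicate 3 for IFI44L, and only IFI44 rose for Evs-FBMSC against PBS, by 2.04 on the log2 scale (SE 0.41, limma adjusted p = 0.0279). After scaling, both had all Evs-ABPC libraries below all Evs-FBMSC libraries, with -1.59 (SE 0.60) for IFI44 and -0.70 (SE 0.24) for IFI44L.

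IFI35 was the 1 member whose scaled values in Evs-FBMSC lay above all 6 other libraries (0.774% of all genes tested). They were 14.5, 11.6 and 11.7 under PBS, 20.7, 21.5 and 18.9 under Evs-FBMSC and 10.4, 16.9 and 11.7 under Evs-ABPC. The scaled log2 fold changes were 0.66 (SE 0.22) for Evs-FBMSC against PBS and -0.63 (SE 0.22) for Evs-ABPC against Evs-FBMSC. SP110 measured 8.43, 16.2 and 18.0 per-million units under PBS, 29.7, 26.8 and 18.1 under Evs-FBMSC and 32.9, 56.4 and 44.9 under Evs-ABPC, and was higher in every Evs-ABPC library than in any other on that scale. Its scaled log2 fold change was -0.23 (SE 0.25) for Evs-FBMSC and -0.33 (SE 0.25) for Evs-ABPC, each against PBS. SIGLEC1, with 12 to 153 reads, measured 0.0819, 0.0620 and 0.106 per-million units under PBS, 0.331, 0.411 and 0.153 under Evs-FBMSC and 0.480, 0.592 and 1.46 under Evs-ABPC, in 3 groups that did not overlap. After scaling its means were 0.175 ± 0.0661, 0.283 ± 0.104 and 0.395 ± 0.168 (SD, n = 3 each), with overlap.

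**Figure D2:**
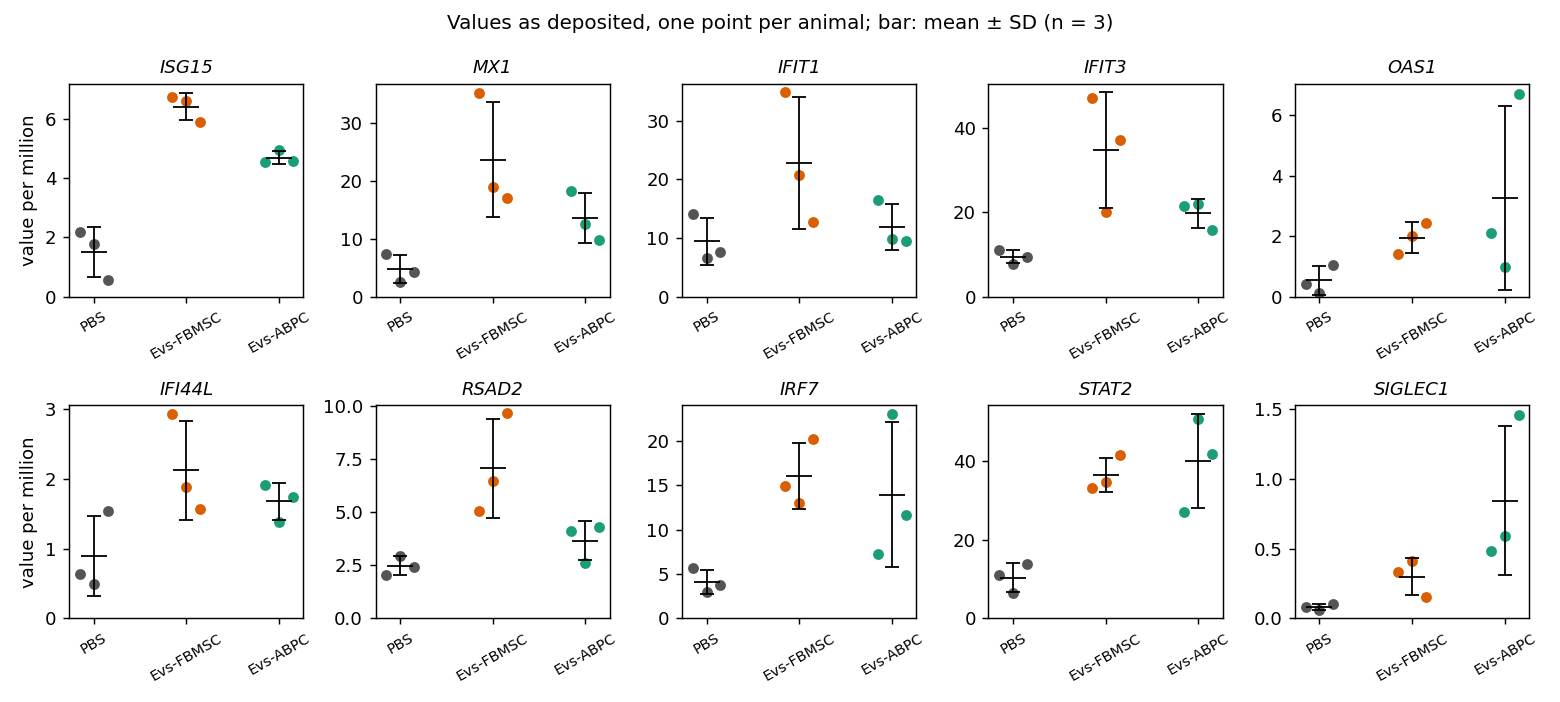
Per-million value as deposited (vertical axis, from 0) for 10 of the genes in the 3 groups (horizontal axis), with 1 point per animal and bars for mean ± SD (n = 3). ISG15 lies at 0.547 to 2.18 under PBS, 4.54 to 4.95 under Evs-ABPC and 5.89 to 6.75 under Evs-FBMSC, while IFIT1 overlaps between all groups.

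The comparison of Evs-FBMSC with PBS asks how vesicles of this source differ from vehicle. As deposited, IFIT2, MX1, IFI44, ISG15 and PARP9 rose, and the other 37 tested members did not pass. These are 5 of 42 members called, against 0.255% of all genes tested (27 genes). At an unadjusted p under 0.05, 37 of 42 were higher (43.6% of all genes tested), and every Evs-FBMSC library lay above every PBS library for 35 of 42 (50.9%). The members' median log2 fold change was 1.37 against 0.70 for all genes, and 40 of the 42 lay above the all-gene median. The number called depended on single libraries: it was 1 without PBS replicate 2, 34 without PBS replicate 3, and 23, 28 and 20 without Evs-ABPC replicates 1, 2 and 3, while the number called among all genes ranged from 13 to 4562. Over 15 alternatives, IFIT2, MX1, IFI44 and ISG15 were each called in 13 and PARP9 in 11, with a limma adjusted p of up to 0.209; with no filter on low values 0 members were called.

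After scaling, 38 of 42 members had a log2 fold change above 0 for Evs-FBMSC against PBS (53.0% of all genes tested), with a median of 0.58, and the exceptions were IFI27, SP110, ISG20 (-0.15) and LY6E (-0.08). limma called 0 members and 0 genes, as did limma-voom on recovered reads. At an unadjusted p under 0.05, 7 members were higher and 0 lower by limma (2.24% and 2.60% of all genes tested), and 11 and 0 by limma-voom (1.77% and 2.35%). Evs-FBMSC lay above PBS without overlap for IFI35, OAS1 and SAMD9 (3 of 42, against 4.96%). The role medians were 0.94 for the MX genes, 0.76 for the transcription factors, 0.66 for RNA sensing, 0.65 for the PARP genes and DTX3L, 0.64 for ISG15 and its enzymes, 0.52 for the IFIT genes, and 0.33 and 0.59 for the other effectors and other induced genes. PBS replicate 1 bore on this comparison: without it the median was 0.76 and 21 members were higher at an unadjusted p under 0.05, and without PBS replicate 2 or 3 it was 0.38.

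The comparison of Evs-ABPC with PBS asks the same of the antler progenitor vesicles. As deposited, 37 of 42 members rose, against 90.9% of all genes tested, so their share was near that of the whole table. CMPK2, IFI27, IFI44L, IFIT1 and RSAD2 did not pass. The libraries did not overlap for 34 of 42 (85.4% of all genes tested), and the median log2 fold change was 1.60 against 1.41. ZBP1, EIF2AK2 and PARP12 had the smallest p.

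After scaling, the members lay around the median gene for Evs-ABPC against PBS, with a median of -0.10 and 28 of 42 below 0 (49.8% of all genes tested). limma called 0 members and 0 genes, and limma-voom did too. Without PBS replicate 3, limma called 172 genes and limma-voom 162, and limma-voom with sample quality weights on all libraries called 276 genes, with 0 members among them in each case and a members' median of -0.44 under the weights. At an unadjusted p under 0.05, ZBP1 was higher (3.08% of all genes tested) and RSAD2, IFIT1 and CMPK2 were lower (7.12%); limma-voom gave 1 and 4 (2.27% and 7.06%). The libraries did not overlap for RSAD2 (1 of 42, against 7.51%). The IFIT genes had a median of -0.61 and the RNA-sensing genes one of 0.24. Without PBS replicate 1 the median of the members was 0.23 and 13 were below 0, and without PBS replicate 3 it was -0.22 and 35 were below 0. With the erythroid markers taken out instead of scaling, it was 0.66 against 0.75 for all genes.

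**Figure D3:**
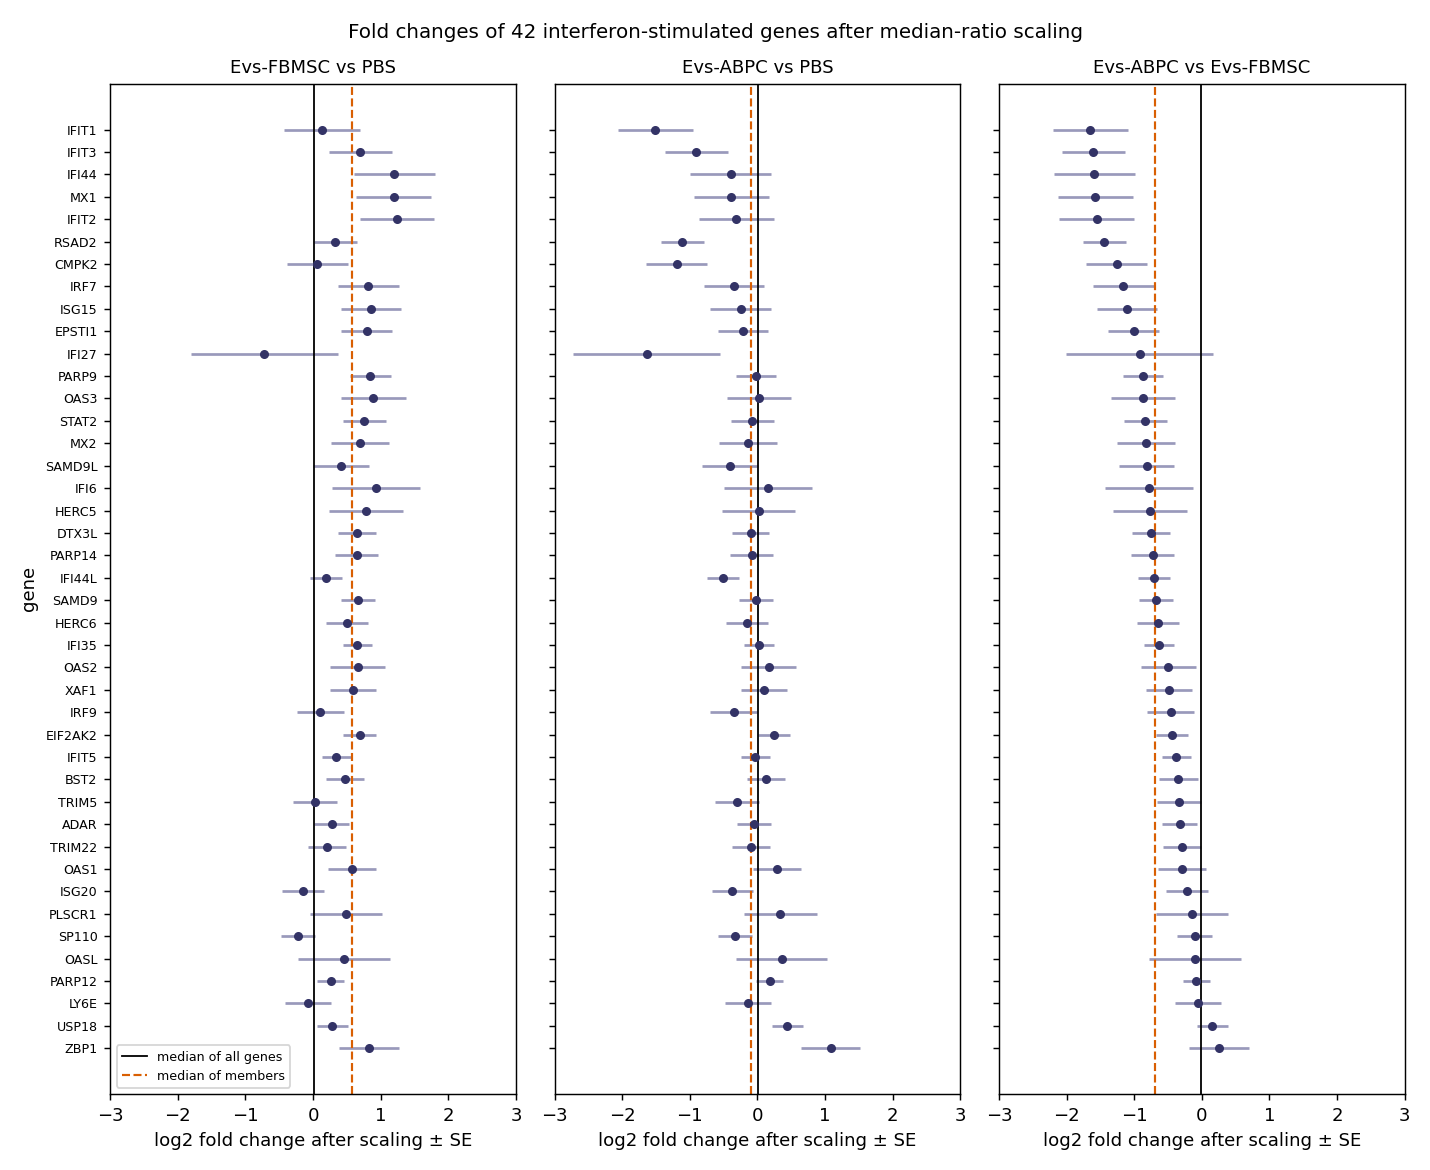
Scaled log2 fold change ± SE (horizontal axis) of 42 members (vertical axis, in 1 order for all panels) for each pair of groups, with the median of all genes (black line) and of the members (dashed line). The members' medians are 0.58, -0.10 and -0.69 in the 3 panels.

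The comparison of Evs-ABPC with Evs-FBMSC asks whether the vesicle sources differ; PBS libraries enter it through the scaling, the filter on low values and the shared estimate of spread. Relative to the median gene, nearly all members lay lower under Evs-ABPC, with the largest differences for IFIT1, IFIT3, IFI44, MX1, IFIT2 and RSAD2, but none passed the adjusted threshold. After scaling, 40 of 42 lay below 0 (52.8% of all genes tested), and the median was -0.69 against -0.02. All Evs-ABPC libraries lay below all Evs-FBMSC libraries for 18 of 42, against 6.80% of all genes tested. These were MX1, IFIT1, IFIT2, IFIT3, ISG15, IFI44, IFI44L, IFI35, OAS3, RSAD2, CMPK2, PARP9, PARP14, DTX3L, EPSTI1, STAT2, IRF7 and EIF2AK2. At an unadjusted p under 0.05, 17 were lower and 0 higher by limma (3.97% and 1.40% of all genes tested) and 16 and 0 by limma-voom (4.57% and 1.66%), but either tool called 0 members and 0 genes after adjustment. The smallest limma adjusted p of a member was 0.748 (RSAD2).

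The role medians for this comparison, after scaling, were -1.58 for the IFIT genes, -1.2 for the MX genes, -0.83 for the transcription factors, -0.74 for the PARP genes and DTX3L, -0.71 for ISG15 and its enzymes, -0.70 for the other induced genes, -0.35 for the other antiviral effectors and -0.33 for RNA sensing. At an unadjusted p under 0.05, 3 of 4 IFIT genes, 3 of 4 of the PARP and DTX3L genes and 0 of 7 RNA-sensing members were lower, against 3.97% of all genes tested. The 0 of 7 is near that share, and the RNA-sensing members OAS3 and EIF2AK2 were among the 18 members without overlap. The difference between roles was not tested. With each library left out in turn, 37 to 40 members stayed below 0. The median was weakest without Evs-FBMSC replicate 1 (-0.50) and without Evs-ABPC replicate 3 (-0.59), and in each case 4 members were lower at an unadjusted p under 0.05. With the erythroid markers taken out and the rest rescaled to the same total, in place of median-ratio scaling, the median was -0.42 against 0.32 for all genes, and 30 of 42 lay below 0.

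As deposited, where most genes were listed higher under Evs-ABPC than under Evs-FBMSC, the members did not follow. Their median log2 fold change was 0.11 against 0.71 for all genes, 15 of 42 were below 0 (4.93% of all genes tested), and 4 of 42 (LY6E, SP110, ZBP1 and PARP12) lay above the all-gene median. limma called 0 of 42, against 0.585% of all genes tested as higher and 0.0566% as lower. At an unadjusted p under 0.05, ZBP1, USP18 and PARP12 were higher (48.0% of all genes tested) and RSAD2 was lower (0.274%). USP18 had passed the filter on low values only through the Evs-ABPC libraries. ISG15 and RSAD2 were lower in every Evs-ABPC library than in any Evs-FBMSC library (2 of 42, against 0.170%), and USP18, PARP12 and SP110 were higher without overlap (3 of 42, against 50.5%). The number of members called reached 4 without Evs-ABPC replicate 1 (3 higher and 1 lower), where 4610 of all genes were called.

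**Figure D4:**
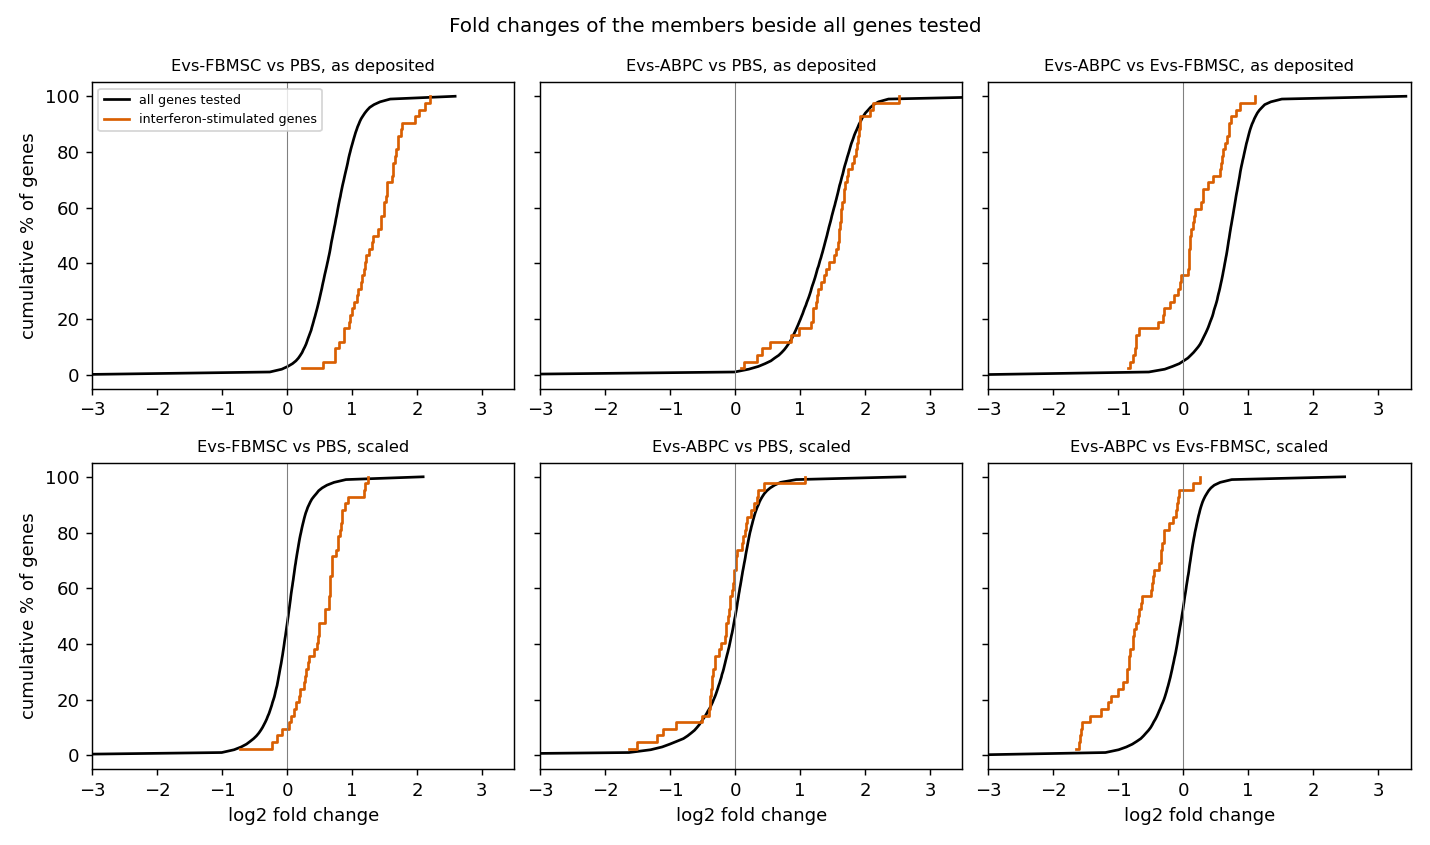
Cumulative percentage of genes (vertical axis) against log2 fold change (horizontal axis) for the 42 members (orange) and all 10596 genes tested (black), as deposited in the upper panels and scaled in the lower ones. The members lie to the right of all genes for Evs-FBMSC against PBS, along them for Evs-ABPC against PBS and to the left for Evs-ABPC against Evs-FBMSC.

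The groups were also ordered by their mean of log2(scaled value + 1) for each gene, as a description, since the comparisons share groups. Evs-FBMSC was the highest group, PBS the middle and Evs-ABPC the lowest for 24 of 42 members (57.1%, against 16.3% of all genes tested). For 12 more (28.6%, against 14.9%) Evs-FBMSC was highest and PBS lowest. PBS was highest for 4 (IFI27, ISG20, SP110 and LY6E) and Evs-ABPC for 2 (USP18 and ZBP1). Of these 2, USP18 had passed the filter on low values only through Evs-ABPC. Since PBS overlapped both vesicle groups for most members, its place in this order lies within the spread between animals.

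Ratios between 2 members of the same library do not depend on the scaling. The pairs shown were chosen after the values were seen, each with the more strongly differing gene as numerator. A lower ratio under Evs-ABPC was therefore built into the choice and is no separate support. The denominators differed weakly between the vesicle groups after scaling, except for STAT2, which did not overlap between them. The ratio of IFIT3 to ADAR was 0.798, 0.541 and 0.456 under PBS, 1.02, 0.502 and 0.965 under Evs-FBMSC and 0.498, 0.255 and 0.228 under Evs-ABPC. The ratio of MX1 to TRIM22 was 0.304, 0.0852 and 0.135 under PBS, 0.419, 0.299 and 0.272 under Evs-FBMSC and 0.219, 0.105 and 0.0755 under Evs-ABPC. In both cases all Evs-ABPC libraries lay below all Evs-FBMSC libraries, though for IFIT3 to ADAR the nearest libraries were close, at 0.498 and 0.502. The ratio of IFIT1 to BST2 was 1.64, 0.540 and 0.664 under PBS, 1.21, 0.455 and 0.525 under Evs-FBMSC and 0.586, 0.177 and 0.134 under Evs-ABPC, and all groups overlapped. That of RSAD2 to STAT2 was 0.187, 0.460 and 0.175 under PBS, 0.152, 0.186 and 0.232 under Evs-FBMSC and 0.151, 0.0508 and 0.102 under Evs-ABPC. The vesicle groups did not overlap, but 0.152 lay beside 0.151, and PBS overlapped Evs-FBMSC.

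Many members sit in clusters of related genes. By the gene order of the RefSeq table, which is of another assembly and was used only for neighbourhood, 42 members had an entry and formed 13 pairs with at most 1 protein-coding gene between them. The median difference in scaled log2 fold change within such a pair was 0.13 for Evs-ABPC against Evs-FBMSC, against 0.49 over all 861 pairs of tested members. It was 0.27 against 0.38 for Evs-FBMSC against PBS and 0.21 against 0.36 for Evs-ABPC against PBS. PARP14 and DTX3L differed by 0.024 for Evs-ABPC against Evs-FBMSC, by 0.017 for Evs-ABPC against PBS and by 0.0072 for Evs-FBMSC against PBS. Other pairs depended on the comparison: in the same order, IFIT2 and IFIT3 differed by 0.049, 0.59 and 0.54, IFI44 and IFI44L by 0.89, 0.12 and 1.01, and IFIT1 and IFIT5 by 1.27, 1.47 and 0.20. Close copies such as MX1 and MX2, the IFIT and OAS genes or SAMD9 and SAMD9L may share reads, and how such reads were counted is not given in the sources used here.

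Markers of blood cell types, summed per library, were compared in the same scaled values. All 12 erythroid markers were present, and their scaled sum was 1168960 to 2850620 under PBS, 696350 to 930041 under Evs-FBMSC and 303599 to 551228 under Evs-ABPC, with no overlap between the groups. Monocyte markers (9 of 10 in the table) summed to 282 to 458 under PBS, 290 to 982 under Evs-FBMSC and 261 to 340 under Evs-ABPC. Neutrophil markers (11 of 13) summed to 691 to 2525, 790 to 3696 and 531 to 1500 in that order. Both the monocyte and the neutrophil sum were highest in Evs-FBMSC replicate 1, the library with the highest scaled sum of members. PBS replicate 1, also high in members, had a monocyte sum of 458 and a neutrophil sum of 1403. Other libraries did not follow this order. Evs-FBMSC replicate 3, with a member sum of 740, had a monocyte sum of 290 and a neutrophil sum of 1085.5. PBS replicate 2, with a member sum of 485, had a monocyte sum of 371 and a neutrophil sum of 2525. Plasmacytoid dendritic cell markers (7 of 8), of the cells known for making interferon alpha, summed to 52.8 to 182, 113 to 288 and 103 to 163, with CLEC4C or SCT at 0 in 5 of the 9 libraries. GZMB belongs to this list and also to that of cytotoxic and NK cells, so the sum is not particular to plasmacytoid cells. Both sums were highest in Evs-FBMSC replicate 2. T cell markers (11 of 13) summed to 125 to 178, 102 to 245 and 157 to 353, and cytotoxic and NK markers (10 of 10) to 141 to 402, 267 to 669 and 246 to 457. B cell markers (10 of 10) summed to 200 to 389, 90.5 to 241 and 93.2 to 271, and platelet markers (6 of 8) to 171 to 214, 106 to 245 and 58.8 to 407. No listed marker was at 0 in all libraries of a group. The part of these markers in the differences between groups was not tested. Without Evs-FBMSC replicate 1, the scaled median for Evs-ABPC against Evs-FBMSC went from -0.69 to -0.50, 38 of 42 members lay below 0, and 4 in place of 17 were lower at an unadjusted p under 0.05.

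**Figure D5:**
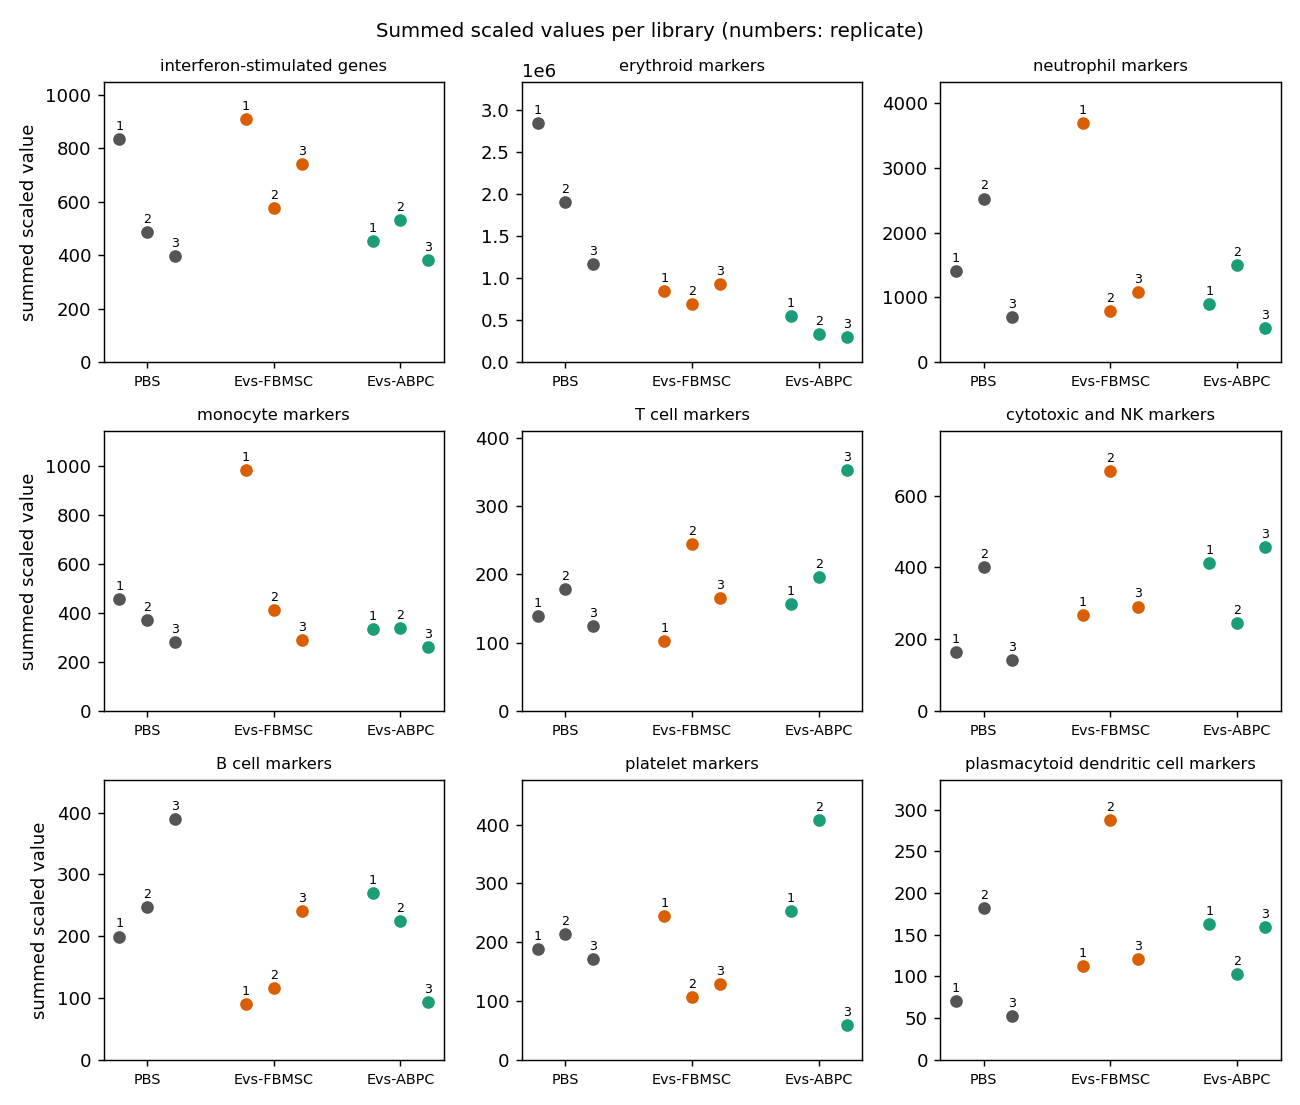
Summed scaled values per library (vertical axes, from 0) of the interferon-stimulated genes and of 8 lists of blood cell markers, for the 3 groups (horizontal axes), with points numbered by replicate. The erythroid sum separates the 3 groups, while the monocyte and neutrophil sums are highest in Evs-FBMSC replicate 1 at 982 and 3696.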

How the data were processed

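RNA of whole blood was measured in 9 macaques, 3 per group, grouped by the titles of the samples. Total RNA went into a NEBNext Ultra library kit and paired ends were read on Illumina, per the labels' protocols. The build was Mmul_10, per the submitters' processing notes; not given in the sources used here: aligner, counting program, and how strand and reads shared by close copies were handled. The authors deposited 1 table of log2 values for 24371 genes and 9 columns, all matched to samples by name (0 left over). From the values, 0.5 was added before the log2, and the linear values sum to 1000000 per library (1000002 in Evs-ABPC replicate 2) and behave like TPM.

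The planned count test was not used, because the file held no counts. limma 3.58.1 in R 4.3.3 was fitted with a trend to log2(value + 1) of all 9 samples, with group as the only term, keeping genes that reached a value of 1 in at least 3 samples. Benjamini-Hochberg adjustment of p-values ran over all of them, with a threshold of 0.05. This was repeated after median-ratio scaling over the 13350 genes above 0 in all libraries (size factors 0.326 to 2.49). Whole reads were recovered per gene as multiples of 1 step: 21545 of 21551 genes above 0 in 2 or more libraries (99.97%) came out whole within 0.001 reads, all 43 members among them; HBB, HBA and HBA1 were among the 6 that did not. limma-voom on these reads was an alternative. The scripts were tested on simulated data. Replicates differed beyond sampling noise (chi-square per degree of freedom 19.6 to 71.8). The sources name no batch.

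The members, role lists, pathway list and marker lists (red cells, neutrophils, platelets, monocytes, plasmacytoid dendritic cells, B cells, T cells, cytotoxic and NK cells) were chosen with earlier results of these data known. Values in every library are given for 10 preset members and for the 3 tested members with the smallest p in each direction, comparison and scale; IFI27, IFNAR2, IFNB1, IFNA21 and IFNG values were chosen after they were seen, apart from the rule where it names them. Of the members, 41 were found in the table of gene IDs and symbols and 42 in that of RefSeq; no coordinates are given, since the builds differ. Promoter sequences were not used here, so the planned motif search was not run. The values of 1 pathway gene are not reported here.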

Additional observations from a re-analysis of the deposited data

How the results depend on the processing

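Every alternative ran except the motif search. The members' median kept its sign under every alternative run except for Evs-ABPC against PBS after scaling, where it was -0.23 to 0.26 with 1 library left out and 0.66 with erythroid markers taken out and the rest rescaled. That rescaling gave Evs-FBMSC against PBS a median of 1.11 (all genes 0.75 and 0.43 in these comparisons), and Evs-ABPC against PBS turned positive for ISG15 (0.56), MX1 (0.36), IRF7 (0.40) and STAT2 (0.71), and Evs-FBMSC against PBS for SP110 (0.19) and ISG20 (0.27). As deposited, adding 0.1 before the log2 gave medians of 1.89 for Evs-ABPC and 1.76 for Evs-FBMSC against PBS. Members called for Evs-FBMSC against PBS numbered 20 with 0.1 added (184 of 10596 genes), 0 with no filter (1 of 24371 genes; 35 members at an unadjusted p under 0.05), 25 with a filter at 5 (790 of 5099 genes), 34 with only the 2 groups (2723 of 8623 genes), and 1 to 34 with 1 library left out (13 to 4562 genes). Replicate numbers do not pair the samples (correlations of deviations from the group means -0.25 to 0.28 for the same number, -0.42 to 0.35 for others); with the replicate number as a block, 1 member was called higher and 1 lower for Evs-ABPC against Evs-FBMSC as deposited (0 and 0 without it; 3406 of 10596 genes, against 68 without it; 3 of 9 samples correlate best with their own number), and 7 for Evs-FBMSC against PBS (44 genes). With 1 library left out, those calls ranged from 0 to 3 higher and 0 to 1 lower. limma-voom with 1 library left out or with sample quality weights was added after seeing the data; the weights turned scaled IFIT1 for Evs-FBMSC against PBS to -0.52. Over the libraries left out, scaled Evs-FBMSC against PBS had a median from 0.38 to 1.10, IFI27 from -1.80 to 0.98, IFI44L from -0.033 to 0.50, IFIT1 from -0.29 to 0.78 and ISG20 from -0.44 to 0.12. Scaled Evs-ABPC against PBS had IRF7 from -0.71 to 0.15, ISG15 from -1.07 to 0.51, MX1 from -0.83 to 0.25, OAS1 from -0.13 to 1.27 and STAT2 from -0.39 to 0.29. Evs-ABPC against Evs-FBMSC had OAS1 from -1.20 to 0.091 and ZBP1 from -0.000704 to 0.60 scaled, and IRF7 from -0.72 to 0.053, OAS1 from -0.24 to 0.74 and STAT2 from -0.10 to 0.34 as deposited. The cause was not tested. ISG15 and OAS1 had as few as 6 reads in a PBS library, which limits their precision.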
